A study of Mus musculus with 6 samples.

Results

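YAP/TAZ, the TEAD transcription factors and the Vgll cofactors were measured in mouse heart tissue by RNA sequencing. The genes were taken from the deposited count table by symbol, as Yap1, Wwtr1 (the gene for TAZ), Tead1, Tead2, Tead3, Tead4, Vgll2, Vgll3 and Vgll4. All 9 were found among the 56748 genes of the table, and 8 of them, all but Vgll2, were among the 13888 genes with enough counts to be tested. Hearts came from 3 male Pontin cTG mice and 3 male non-transgenic WT littermates on a C57Bl/6 background. The transgene of the Pontin cTG mice is a human cDNA with a flag tag, coding for Pontin (RUVBL1), an AAA+ ATPase, and it is driven in cardiomyocytes by the αMHC promoter of the mouse. The mice of both groups were 10 weeks old at the start and received angiotensin II (Ang-II), a hypertrophic stimulus, at 1.5 mg/kg body weight per day from an osmotic pump for 14 days. No heart without Ang-II was analysed here, so the groups compare genotypes under Ang-II and not the effect of Ang-II.

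YAP and TAZ are transcriptional coactivators at the end of the Hippo pathway. The kinases MST1/2 and LATS1/2 phosphorylate them, which holds them in the cytoplasm and marks them for degradation, and the unphosphorylated proteins enter the nucleus. They do not bind DNA themselves but are carried to it by TEAD1 to TEAD4, which recognise the sequence GGAATG, known in muscle genes as the MCAT element. Vgll proteins have no DNA-binding domain either and dock on the same face of the TEAD proteins. Vgll4 thereby competes with YAP, while Vgll2 and Vgll3 are best known from skeletal muscle. In the heart, YAP/TEAD activity is known for its part in cardiomyocyte growth and proliferation. RNA levels show how much transcript of each partner was present, and not phosphorylation, location or activity of the proteins.

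The libraries held 12436822 to 16888124 counts each. In a principal component analysis the first component carried 48.6% of the variance, and cTG2, the second Pontin cTG heart, stood apart on it with a score of 50.9 against -23.1 to 16.2 for the other 5 hearts. The labels give no batch. Mouse Ruvbl1 (chr6:88442391-88474554, GRCm39) had normalised counts of 216, 221 and 217 in WT and 249.9, 250.02 and 239.95 in Pontin cTG hearts. The groups did not overlap, as was so for 8.33% of all tested genes, with 218 ± 2.72 (SD, n = 3) against 247 ± 5.79 (SD, n = 3) and an exact permutation p of 0.1, the smallest that 3 hearts against 3 can give. The log2 difference of 0.18 (SE 0.12) did not pass edgeR's test, with a p of 0.177 before and 0.999 after adjustment. Human transgene reads may be missed by a mouse annotation, and the mouse gene's value is thus no measure of the transgene. Heart tissue was sequenced, in which fewer cells of a type and less RNA per cell cannot be told apart.

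The coactivators and Tead1 were far more abundant than the other members. The levels below are TPM (transcript levels per length, scaled to the same total in each heart), computed from the count and the gene length in the table, with the mean ± SD over all 6 hearts. Wwtr1 had 45.1 ± 3.88 TPM and lay at percentile 88.2 of the tested genes, Tead1 had 37.4 ± 10.9 TPM at percentile 85.6, and Yap1 had 23.9 ± 2.27 TPM at percentile 78.1. Vgll4 followed at 6.99 ± 0.414 TPM. Below it came Tead3 at 2.97 ± 0.698 TPM, Vgll3 at 2.85 ± 0.403 TPM, Tead2 at 2.10 ± 0.760 TPM and Tead4 at 1.80 ± 0.165 TPM, the last at percentile 17.8. Vgll2 was close to 0, at 0.0758 ± 0.115 TPM.

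Some neighbours in this order differed in every heart and others did not. Yap1 was above Vgll4 in 6 of 6 hearts by a mean of 3.40-fold, and Vgll4 above Tead3 in 6 of 6 by 2.40-fold, so the genes form an upper group of 3 and a lower group of 4 with Vgll4 between them. Wwtr1 was above Tead1 in 6 of 6 hearts, with a mean log2 ratio of 0.33 ± 0.50 (SD, n = 6), and Tead1 above Yap1 in 5 of 6. Tead3 was above Vgll3 in 3 of 6 hearts, Vgll3 above Tead2 in 5 of 6 and Tead2 above Tead4 in 4 of 6. No step within the lower group thus held in every heart. The plot of levels shows the groups and the overlap within each.

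**Figure D1:**
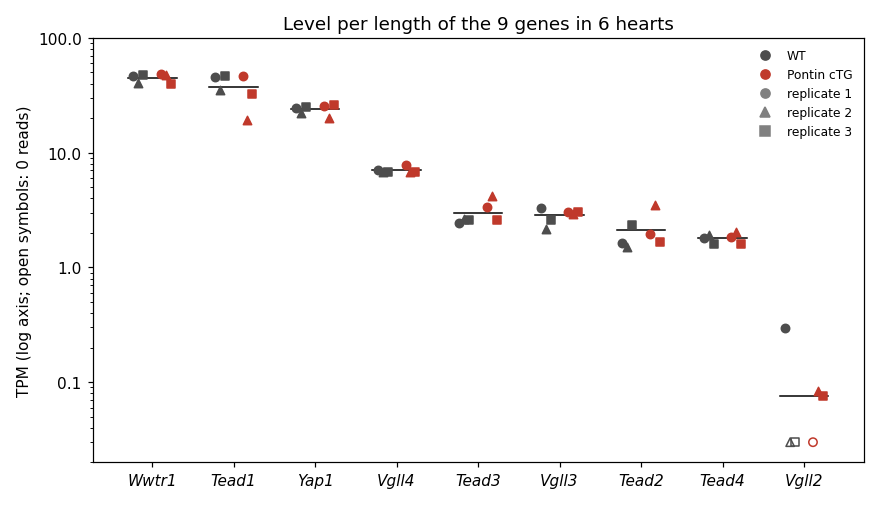
Level of each gene in TPM on a log10 axis. Each point is 1 heart (WT or Pontin cTG, open symbols for listed values of 0). Wwtr1, Tead1 and Yap1 lie between 19.1 and 48.5 TPM, Vgll4 between 6.73 and 7.81 TPM, and Tead3, Vgll3, Tead2 and Tead4 between 1.51 and 4.23 TPM.

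The order within the upper group depended on the gene length used. The table gives Yap1 9257 bases and Wwtr1 4779 bases, whereas the longest coding transcripts of the GENCODE M21 annotation have 4171 and 4697 bases. With these transcript lengths the order was Yap1, Tead1, Wwtr1, with means of 24.5, 23.5 and 21.3 CPM per kb. CPM per kb is the count scaled to library size and divided by length, and its values cannot be set against the TPM above, only against each other. Vgll4 again came between the upper and the lower genes, at 8.61 CPM per kb, and the lower group ran from 0.974 (Tead4) to 3.34 CPM per kb (Tead3). Length does not enter the counts compared between genotypes below.

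Within the TEAD family, Tead1 supplied most of the transcripts. Its share of the summed TEAD TPM was 88.6, 85.2 and 87.6% in the WT hearts and 86.7, 66.1 and 84.6% in the Pontin cTG hearts, or 87.1 ± 1.71% against 79.1 ± 11.3% (SD, n = 3 each). The low share was that of cTG2 alone, and the groups overlapped. In cTG2, Tead3 made up 14.7%, Tead2 12.2% and Tead4 7.01% of the TEAD transcripts, while in the other 5 hearts these shares were 4.73 to 6.86%, 3.18 to 4.46% and 3.06 to 4.65%. The mean Tead1 share over the 6 hearts was 83.1 ± 8.47% with the table's lengths and 79.2% with the transcript lengths.

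**Figure D2:**
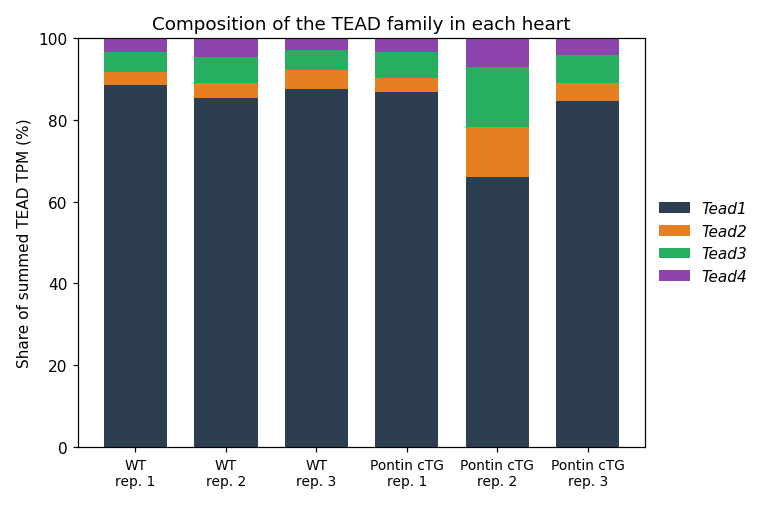
Composition of the TEAD family in each heart, as the percent of summed TEAD TPM taken by Tead1, Tead2, Tead3 and Tead4. The bars start at 0. Tead1 takes 84.6 to 88.6% in 5 hearts and 66.1% in cTG2.

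Summed over the family, TEAD transcripts were 51.2, 41.1 and 52.7 TPM in WT and 53.6, 28.8 and 38.1 TPM in Pontin cTG hearts. YAP/TAZ transcripts varied less, with 71.0, 62.4 and 72.5 TPM in WT and 73.9, 67.9 and 66.1 TPM in Pontin cTG. The ratio of YAP/TAZ to TEAD transcripts, which sets coactivators against their DNA-binding partners, was therefore 1.39, 1.52 and 1.37 in WT and 1.38, 2.36 and 1.73 in Pontin cTG, with overlapping groups. Wwtr1 made up 65.7, 64.6 and 65.3% of YAP/TAZ transcripts in WT and 65.7, 70.3 and 60.5% in Pontin cTG hearts. With the transcript lengths this share was 46.5% on average instead of 65.4%, so which of the coactivators has more transcripts was not settled by these data. Vgll4 made up 66.2, 75.8 and 72.6% of the Vgll transcripts in WT and 71.9, 69.1 and 68.3% in Pontin cTG, Vgll3 nearly all of the rest. None of these shares separated the genotypes.

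To show where TEAD proteins could bind these genes themselves, the promoters were searched for GGAATG and its reverse complement CATTCC, which covers both strands. RefSeq promoters (GRCm38.p6, 250 bases before to 50 after each start site) were given for 7 of the 9 genes, not for Tead1 and Tead4. The motif was in at least 1 promoter of 5 of the 7 genes (71.4%; Yap1, Wwtr1, Tead3, Vgll3 and Vgll4), against 4481 of 27025 genes (16.6%) in the whole table, and in none of the single promoters of Tead2 and Vgll2. The stretches below are shown because they carry the motif; each is written 5′ to 3′ on the strand of its gene, with the motif in capitals, and Ankrd1 and Ccn1, classical YAP/TEAD targets, are given for comparison.
Yap1, chr9:8004702-8004767, minus strand, motif starting at -141 from the start site: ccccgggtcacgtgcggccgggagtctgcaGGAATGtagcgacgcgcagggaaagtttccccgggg
Wwtr1, chr3:57576011-57576076, minus strand, motif at -136: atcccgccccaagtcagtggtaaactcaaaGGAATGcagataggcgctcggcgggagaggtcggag
Tead3, chr17:28350688-28350753, minus strand, first of 2 motifs at -123: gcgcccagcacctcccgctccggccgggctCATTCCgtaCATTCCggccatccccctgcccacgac
Vgll3, chr16:65815096-65815161, plus strand, motif at -63: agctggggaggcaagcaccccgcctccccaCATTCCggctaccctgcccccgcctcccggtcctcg
Vgll4, chr6:114969250-114969315, minus strand, motif at -82: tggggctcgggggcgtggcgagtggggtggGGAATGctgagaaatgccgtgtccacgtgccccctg
Ankrd1, chr19:36119932-36119997, minus strand, motif at -123: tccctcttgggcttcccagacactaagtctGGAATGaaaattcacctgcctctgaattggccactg
Ccn1, chr3:145650053-145650118, minus strand, motif at -103: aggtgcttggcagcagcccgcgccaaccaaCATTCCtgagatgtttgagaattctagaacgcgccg

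Not every match is shown above. Tead3 also held the motif at -182 and at 2 from its listed start sites, and Ankrd1 at -210. Genes with several listed promoters have more chances to hold the motif. It was in 1 of 1 promoter of Yap1, Vgll3 and Vgll4, 2 of 2 of Wwtr1 and 2 of 3 of Tead3, that is 7 of 10 promoters of the members, against 4817 of 32851 promoters (14.7%) in the table. The 2 promoters of Wwtr1 overlap and hold the same match. Promoters that overlap are thus counted separately here. Among the genes of the YAP/TEAD signature described below 7 of 15 with a promoter in the table (46.7%) held it, and among the MCAT muscle genes 6 of 8 (75%). A match is a run of letters and not a measured binding site, and no binding data are among these files.

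Between the genotypes, no member passed the test. The comparison asked whether cardiomyocyte overexpression of Pontin went with other transcript levels of the Hippo effectors under Ang-II. In edgeR's quasi-likelihood fit, adjusted after Benjamini and Hochberg, 0 of 8 members had an adjusted p under 0.05, as did 0 of 13888 genes (0%), and every member's adjusted p was 0.999. DESeq2 called 1 gene and limma with voom weights 3, none of them a member. Without adjustment 0 of 8 members were under 0.05, against 285 of 13888 genes (2.05%; 1.02% higher and 1.03% lower in Pontin cTG). Tead3 alone had groups that did not overlap, 1 of 8 members against 1157 of all tested genes (8.33%; 4.7% higher, as Tead3 was, and 3.63% lower in Pontin cTG). Pontin cTG was higher for 6 members and lower for 2, and the median log2 difference was 0.024 against 0.0013 over all genes. Log2 differences below are Pontin cTG over WT, and counts are normalised to the mean library size.

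The coactivators were nearly equal in mean. Yap1 (ENSMUSG00000053110, chr9:7932000-8004597, GRCm39, minus strand) had normalised counts of 1525, 1303 and 1525 in WT and 1501, 1165 and 1670 in Pontin cTG hearts. The lowest and the highest heart were both Pontin cTG, and the means were 1451 ± 128 and 1445 ± 257 (SD, n = 3 each). The log2 difference was -0.0058 with a 95% interval from -0.38 to 0.36, which leaves room for a fold of 0.771 to 1.29. Wwtr1 (ENSMUSG00000027803, chr3:57363070-57483331, minus strand) had 1511, 1227 and 1483 in WT and 1483, 1425 and 1321 in Pontin cTG. All Pontin cTG hearts lay inside the WT range. The log2 difference of Wwtr1 was 0.0024, interval -0.31 to 0.31, or 0.808 to 1.24-fold. The exact permutation p was 1 for each.

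Tead1, the main TEAD of these hearts, varied more between hearts than any other abundant member. Tead1 (ENSMUSG00000055320, chr7:112278525-112506014, plus strand) had normalised counts of 4169, 3028 and 4110 in WT and 4029, 1615 and 3025 in Pontin cTG hearts. The WT and Pontin cTG ranges overlapped, and cTG2 was far below the other 5 hearts. The means were 3769 ± 643 in WT and 2890 ± 1213 in Pontin cTG (SD, n = 3 each), a log2 difference of -0.38 (SE 0.30, 95% interval -1.06 to 0.29). The edgeR p was 0.23 before adjustment and the exact permutation p 0.2. Without cTG2 the log2 difference was -0.096.

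Tead3 came closest to a difference. It is a TEAD known from placenta and muscle. Tead3 (ENSMUSG00000002249, chr17:28550645-28569791, minus strand) had 110.1, 113.3 and 112.9 normalised counts in WT and 144.5, 177.2 and 121.3 in Pontin cTG hearts. Every Pontin cTG heart was above every WT heart, with cTG2 the highest and cTG3 just above the WT range. The means were 112 ± 1.73 and 148 ± 28.1 (SD, n = 3 each). The log2 difference was 0.40 (SE 0.18), with a 95% interval from -0.018 to 0.81, that is 0.988 to 1.76-fold. The unadjusted edgeR p was 0.0586, rank 369 among all tested genes, and the exact permutation p was 0.1, the smallest possible. Without cTG2 the log2 difference was 0.24.

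Tead2 and Tead4 are the low TEADs of the heart, Tead2 being best known from the embryo and Tead4 from the trophectoderm and from muscle regeneration. Tead2 (ENSMUSG00000030796, chr7:44865177-44883068, plus strand) had 52.9, 45.99 and 73.8 normalised counts in WT and 59.6, 105.3 and 54.6 in Pontin cTG. Only cTG2 lay above the WT range. The log2 difference was 0.35 (SE 0.32, 95% interval -0.37 to 1.07), with an unadjusted edgeR p of 0.301, and it was -0.013 without cTG2. The table also lists Cd37, a leukocyte membrane protein gene, on the opposite strand and overlapping Tead2. Cd37 had 33.0, 30.3 and 36.9 normalised counts in WT and 27.3, 56.5 and 36.4 in Pontin cTG, so it too was highest in cTG2, and as the use of strand in counting is not stated, reads of the 2 genes cannot be told apart where they overlap. Of the other genes that overlap a member by span, 2310014F06Rik, antisense to Tead1, had 159 counts in all, 0.808% of those of Tead1, and the rest had 0 to 6 counts.

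Tead4 (ENSMUSG00000030353, chr6:128201251-128277786, minus strand) had 44.05, 43.7 and 38.01 normalised counts in WT and 41.98, 45.4 and 39.8 in Pontin cTG hearts. These values rest on 34 to 53 raw counts per heart, and the groups covered nearly the same range. The log2 difference was 0.016 with an interval from -0.53 to 0.57, so a fold between 0.690 and 1.48 could not be told from none at this depth.

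**Figure D3:**
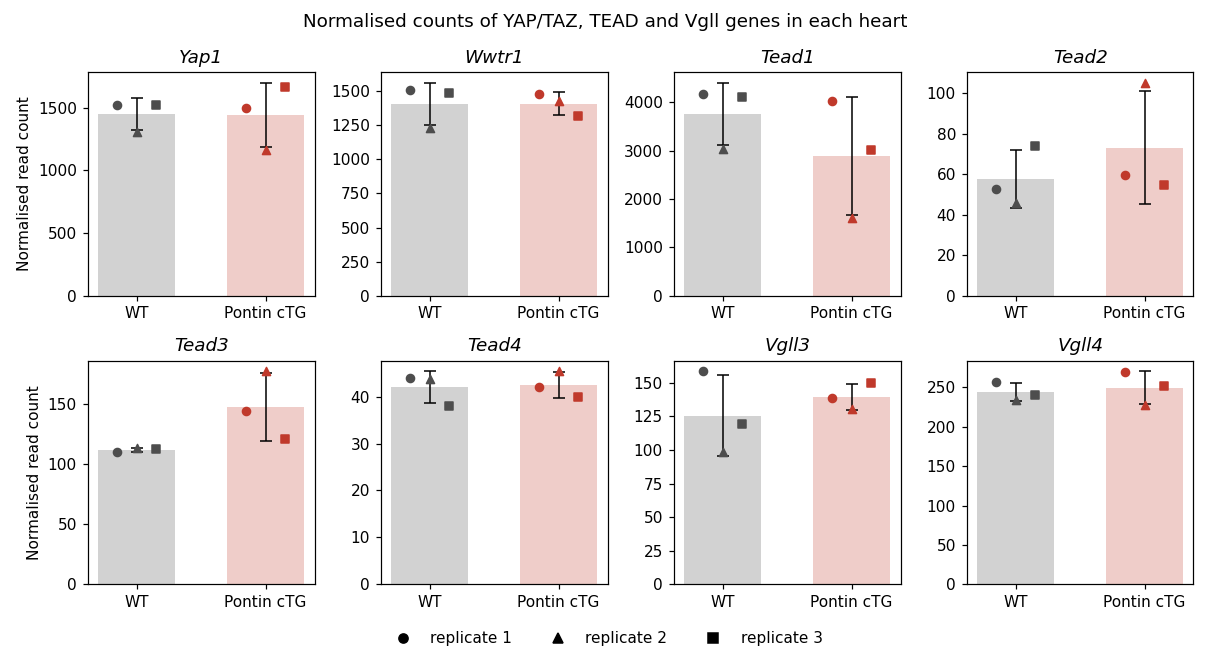
Normalised counts of the members in each heart, 1 panel per gene with its own axis starting at 0. Points are hearts, and the group mean ± SD (n = 3) is drawn with error bars. Only Tead3 has no overlap between WT and Pontin cTG, and cTG2 is the lowest heart for Tead1 and the highest for Tead2 and Tead3.

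The Vgll cofactors differed little between the genotypes. Vgll4 (ENSMUSG00000030315, chr6:114837589-114946955, minus strand), the competitor of YAP, had 257, 234 and 240.3 normalised counts in WT and 269, 228 and 251 in Pontin cTG. It was among the steadiest members, with 244 ± 11.5 against 249 ± 20.9 (SD, n = 3 each), a log2 difference of 0.033 and an interval from -0.26 to 0.33. Vgll3 (ENSMUSG00000091243, chr16:65612143-65663254, plus strand) had 158.6, 98.7 and 119.6 in WT and 138.6, 130.1 and 149.9 in Pontin cTG, and all Pontin cTG hearts lay within the WT range. Its log2 difference was 0.15 (SE 0.20, 95% interval -0.30 to 0.61). Leaving out WT1 moved that value to 0.36 and leaving out WT2 to 0.0036.

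Vgll2 (ENSMUSG00000049641, chr10:51898598-51904567, plus strand) was hardly detected. It had raw counts of 3, 0 and 0 in WT and 0, 1 and 1 in Pontin cTG hearts. No heart was above 3 counts, the number that a count of 0 still allows, which corresponds to 0.178 to 0.241 CPM (counts scaled to library size) in these hearts. No fold was computed. This limit covers counting error only. Vgll1, the remaining family member, had 0 counts in all 6 hearts. Vgll2 is a gene of skeletal muscle, and the markers of skeletal muscle fibres were near 0 as well, with a sum over 7 genes of 0.0794 to 0.547 CPM in the WT hearts, of 0.277 to 0.799 CPM in the Pontin cTG hearts, and Myh1, Myh4 and Myog at 0.

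**Figure D4:**
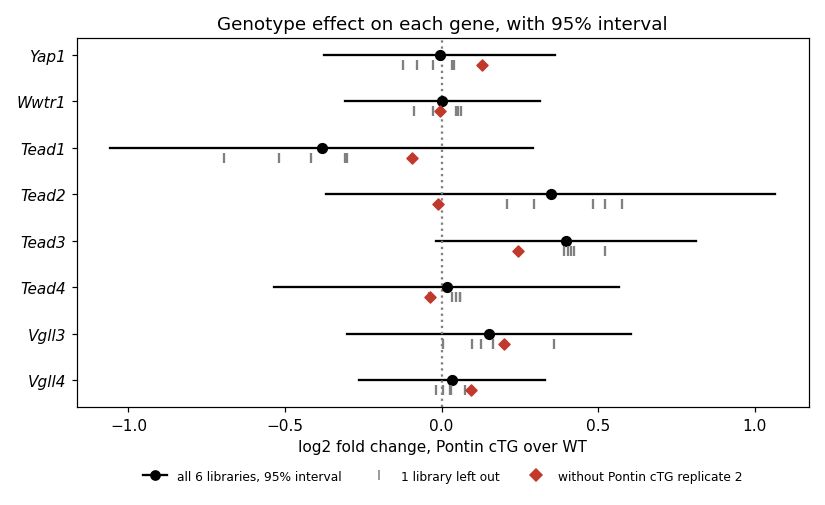
Log2 difference of each tested member, Pontin cTG over WT, with its 95% interval from edgeR (3 hearts per group). All 8 intervals include 0, and the widest is that of Tead2, from -0.37 to 1.07.

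One heart, cTG2, lay at an end of the range for 6 of the 8 tested members. The share over all tested genes was not computed, so this count does not set the members apart from other genes. The heart cTG2 was the lowest of the 6 hearts for Yap1, Tead1 and Vgll4 and the highest for Tead2, Tead3 and Tead4. Its deviation from the mean of the 6 hearts on the log2 scale was -0.97 for Tead1, -0.30 for Yap1, 0.46 for Tead3 and 0.73 for Tead2. Long genes had a low median in the same heart, and in cTG3. The median log2 deviation of the 1316 tested genes of at least 10 kb was -0.15 in cTG2, -0.11 in cTG3 and 0.046 to 0.095 in the other 4 hearts. Tead1 is one of these genes by its deposited length of 13570 bases. Its longest coding transcript in GENCODE M21 has 9964 bases. The part of transcript length or RNA quality in the Tead1 values was not tested.

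Summed markers of the main cell types of the heart had overlapping ranges in the genotypes. The summed level of the 7 cardiomyocyte markers was 45539 to 54679 CPM in the WT hearts, 43181 to 50724 CPM in the Pontin cTG hearts. Of these markers 3 of 7 (42.9%) had separate groups, against 8.33% of all tested genes, Tnni3 and Myl2 with the higher values in Pontin cTG and Actc1 with the lower. The 6 fibroblast markers summed to 767 to 1160 CPM (WT) and 772 to 1126 CPM (Pontin cTG), the 5 endothelial markers to 828 to 850 CPM and 711 to 1048 CPM. In cTG2 the cardiomyocyte, fibroblast and endothelial sums were all the highest of the Pontin cTG hearts, at 50724, 1126 and 1048 CPM, and the endothelial sum alone was above the WT range. The macrophage sums were 136 to 217 CPM (WT) and 113 to 157 CPM (Pontin cTG). Of the 5 macrophage markers 1 was higher and 4 lower in Pontin cTG with a median log2 difference of -0.39, and 1, Csf1r (20%), had separate groups. The mural cell sums were 978 to 1114 CPM and 953 to 988 CPM. Adipocyte and mesothelial markers were low, at most 0.485 and 7.21 CPM in any heart. The part of cell composition in the values of Tead2 and Tead3 was not tested.

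The rest of the pathway was read from lists of known genes. Of the core Hippo kinases and adaptors (Stk3, Stk4, Sav1, Mob1a, Mob1b, Lats1 and Lats2), 0 of 7 were under an unadjusted p of 0.05, 2 were higher and 5 lower in Pontin cTG, and the median log2 difference was -0.17. Under 0.05 were 2 of 7 with voom weights and 1 of 7 with the replicate block, without a filter or without cTG1, none after adjustment. Of all tested genes, 5.72% were under 0.05 with voom weights, 3.59% with the block, 1.86% without a filter and 4.48% without cTG1. Sav1, the scaffold of the MST kinases, had 303, 264 and 274 normalised counts in WT and 226, 226 and 241 in Pontin cTG hearts. Lats1, a kinase of YAP, had 385, 353 and 354 in WT and 328, 336 and 311 in Pontin cTG. Both had groups that did not overlap, which is 2 of 7 genes (28.6%) against 8.33% of all tested genes, and were chosen for naming on that account. The log2 difference was -0.28 (SE 0.13) for Sav1 and -0.17 (SE 0.12) for Lats1, with an adjusted p of 0.999 in edgeR. The ends of the list were Lats2 at 0.19 (SE 0.15) and Mob1b, a LATS activator, at -0.35 (SE 0.18).

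Transcripts of proteins that bind or regulate YAP and TAZ outside the TEAD complex showed nothing past the test. These proteins include the angiomotins, which tether YAP at junctions, and the Ywha adaptors, which hold phosphorylated YAP and TAZ in the cytoplasm. The lists share genes. Amotl2 and Ptpn14 of this list and Lats2 of the core list are also in the YAP/TEAD signature below. Of 16 genes, 7 were higher and 9 lower, 0 were under an unadjusted p of 0.05 and 0 had separate groups, with a median of -0.042. With the replicate block, without a filter or without cTG1, 1 of 16 was under 0.05, against 3.59, 1.86 and 4.48% of all tested genes. The ends were Ywhah at 0.070 (SE 0.12) and Amot at -0.37 (SE 0.20). Without cTG2 the list stood at 13 higher and 3 lower with a median of 0.066.

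Target genes of YAP/TEAD had overlapping groups with 1 exception. Of the 22 genes of the YAP/TEAD signature, a list compiled in cancer cell lines, 21 were tested and Foxf2 with 9 counts in all was not. In Pontin cTG 6 were higher and 15 lower, 0 were under an unadjusted p of 0.05, 1 (Rbms3, 4.76%) had separate groups, and the median was -0.092. These counts depended on single hearts: without cTG2 10 were higher and 11 lower with 3 under an unadjusted p of 0.05, without WT3 the split was also 10 and 11, and without cTG1 it was 4 and 17 with 2 under 0.05. With voom weights 9 were higher and 12 lower, with 4 under 0.05. Of all tested genes, 4.91% were under 0.05 without cTG2, 4.48% without cTG1 and 5.72% with voom weights. The median stayed between -0.16 and -0.051 when 1 heart was left out. Nuak2, a kinase of the AMPK family, had the largest positive value, with 30.8, 47.1 and 52.5 normalised counts in WT and 101.5, 50.5 and 54.6 in Pontin cTG. The high value was that of cTG1 alone, and the log2 difference was 0.66 (SE 0.34). Tgfb2, a growth factor of fibrosis, had the largest negative one, at -0.34 (SE 0.25), with 217 ± 55.6 against 170 ± 50.8 (SD, n = 3 each).

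The classical targets Ccn1, Ccn2 and Ankrd1 belong to that list and were picked here for being the best known. Ankrd1, a stress-induced ankyrin repeat protein of cardiomyocytes, had 14433, 17162 and 16208 normalised counts in WT and 11554, 17519 and 10894 in Pontin cTG. Here cTG2 was the highest heart, while its Tead1 count was the lowest. Ccn2, a matricellular growth factor, had 1096, 1013 and 1455 in WT and 1938, 1158 and 776 in Pontin cTG, so the 3 Pontin cTG hearts spanned more than the WT range. Ccn1 had a log2 difference of -0.023 (SE 0.18), Ccn2 of 0.12 (SE 0.30) and Ankrd1 of -0.26 (SE 0.20).

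The MCAT muscle genes, whose promoters are bound by TEAD1 in muscle, had no common direction. Of 9 genes, 5 were higher and 4 lower in Pontin cTG with 0 under an unadjusted p of 0.05, and 1 (Actc1, 11.1%) had separate groups. The median was 0.018, and its sign changed when single hearts were left out, to -0.11 without cTG2. Without cTG2 or without cTG3, 1 of 9 was under 0.05, against 4.91 and 2.87% of all tested genes. Myh7, the fetal myosin heavy chain that returns in hypertrophy, had 7476, 11962 and 3039 normalised counts in WT and 3310, 20807 and 3080 in Pontin cTG. It was highest in cTG2, with a log2 difference of 0.28 (SE 0.77). Adra1a, an alpha-adrenergic receptor, was at the other end with -0.30 (SE 0.39), and its count of 109.6 in cTG2 was the lowest against 319 to 416 in the other 5 hearts.

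**Figure D5:**
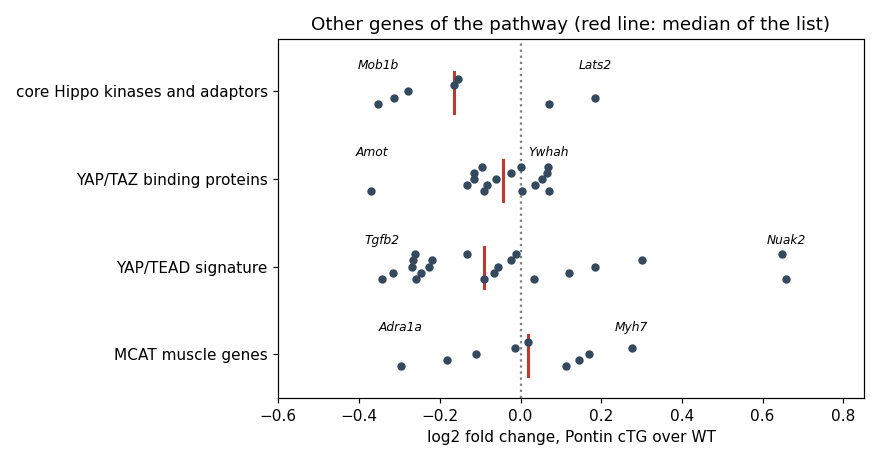
Log2 difference, Pontin cTG over WT, of every tested gene in the 4 pathway lists. Each point is 1 gene, the median of each list is marked (-0.17, -0.042, -0.092 and 0.018), and the genes at the ends of each list are named.

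Some genes followed a profile over the 6 hearts much like that of Tead1 or Tead3. Nearness was measured as the root mean square difference of log2 CPM after each gene was centred on its own mean, over the 6 hearts. For Tead1, whose own profile had a root mean square of 0.48, the nearest genes were Dusp8 at 0.060, Cobll1 at 0.067 and the processed pseudogene Gm18588 at 0.069. For Tead3, with 0.24, they were Fbxl15 at 0.043, Rps19bp1 at 0.045 and Scand1 at 0.053. In cTG2, Dusp8, Cobll1 and Gm18588 deviated by -0.89, -0.87 and -0.84 and Tead1 by -0.97. The likeness is a description over 6 points that share their libraries.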

How the data were processed

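Total RNA of heart tissue was sequenced, 1 library per mouse. The authors deposited whole-number read counts per gene with coordinates. The gene length deposited beside them is a score in bases. The submitters' processing notes name fastp, HISAT2, featureCounts, DESeq2 and GRCm39 without versions, whereas the study's methods name Trimmomatic, STAR and mm10, so the upstream steps are uncertain. Coordinates of genes are printed as GRCm39 after the notes, and those of promoters as GRCm38.p6. How gene length was computed and whether counting used strand are not stated in the sources used here.

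Groups were taken from the sample labels. Counts were fitted in R 4.3.3 with edgeR 4.0.16 (filterByExpr with a minimum count of 10, TMM, robust glmQLFit and glmQLFTest, genotype alone) over all 13888 genes kept, with Benjamini-Hochberg adjustment and a threshold of 0.05, after the scripts had been tested on simulated data. In the simulation edgeR recovered 59 of 99 2-fold changes (59.6%) and 88 of 96 4-fold changes (91.7%), with 17 false calls. Smaller changes were not simulated. Normalised counts are TMM-scaled CPM brought to the mean library size. The SE was taken as the size of the log2 difference over the root of F. Single values were tested with an exact two-sided permutation test. Alternatives were DESeq2 1.42.0, limma 3.58.1 with voom sample weights, other scalings and filters, a replicate block, and leaving out each heart. Transcript lengths from GENCODE M21 were added after the data had been seen.

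Named genes were all members, Ruvbl1, the 3 nearest genes to Tead1 and Tead3, both ends of each pathway list and overlapping genes; Sav1, Lats1, Rbms3, Actc1, Tnni3, Myl2, Csf1r, Foxf2, Vgll1, Myh1, Myh4, Myog, Ccn1, Ccn2 and Ankrd1 were named beyond that rule, after their values had been seen. The members, lists and tests were chosen with earlier results of these data known. The 15 library pairs differed beyond counting noise (lowest chi-square per gene 5.54), and all 6 were kept as separate samples. The study's methods mention that principal components led to the removal of an outlying sample, which they do not name. Its statistics section reports no exclusions, and its legend for this comparison gives 3 mice per group. Whether cTG2, which stood apart on the first component here, is the sample meant is not known. The labels give 1 heart per mouse and no batch.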

Additional observations from a re-analysis of the deposited data

How the results depend on the processing

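Members called at an adjusted p under 0.05 numbered 0 under all 15 alternatives, and the lowest adjusted p of any member was 0.855 (Tead3, limma with voom weights). Members under an unadjusted 0.05 numbered 0 as reported, 1 with the replicate block (Tead1, log2 difference -0.46, unadjusted edgeR p 0.0242, adjusted p 0.944) and 0 to 1 when a heart was left out, with Tead1 without cTG1 and Tead3 without cTG3. Members with separate groups numbered 1, and 1 to 2 of 8 when a heart was left out. The share over all tested genes was 8.33% with every heart and 13.2 to 21.5% without single hearts. Tead1 and Vgll3 kept their direction under all 15, with Tead1 from -0.69 without cTG1 to -0.096 without cTG2, and so did Tead3, from 0.24 to 0.52. Differences near 0 changed sign: Yap1 was 0.016 when scaled by library size, 0.028 with voom, 0.00048 where genes needed 10 counts in every library, and -0.12 to 0.13 without single hearts; Wwtr1 was -0.0071 without a filter, -0.042 with voom and -0.088 to 0.060 without single hearts; Tead4 was -0.029 with voom and -0.041 to 0.060 without single hearts. Tead2 went from -0.013 to 0.58 and Vgll4 from -0.018 to 0.094 without single hearts. The cause of these changes was not tested. Of the 8 steps between neighbours in the order of levels, 5 kept their direction with the GENCODE transcript lengths and 6 without division by length. Over all genes, 285 (2.05%) were under an unadjusted p of 0.05 in edgeR, 499 (3.59%) with the replicate block and 794 (5.72%) with voom. Without single hearts they numbered 122 to 686 (0.847 to 4.91%). Same-numbered hearts correlated in their deviations at 0.077, 0.43 and 0.19. Hearts of different number were not compared in this way, so these values cannot decide whether the numbers mark pairs. The main fit used genotype alone, with the replicate block as an alternative. The 3 hearts per group set the precision, and the low counts of Tead2, Tead4 and Vgll2 limit it further.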
